A study of Homo sapiens with 20 samples.

Results

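The 10 genes described here, SPRY1, SPRY2, SPRY4, SPRED1, SPRED2, DUSP4, DUSP6, ETV1, ETV4 and ETV5, are induced by FGF-ERK signalling in many cell types, and were chosen by name as readouts of FGF removal. Each symbol had 1 coding record, so they make up 10 of the 20237 coding records (38369 records in all, with 18132 long intergenic noncoding RNA, or lincRNA, records). None of the 10 records was merged with another gene, and all 10 were among the 11793 coding records with a mean level of at least 1 FPKM over the days (fragments counted per length of transcript and per depth of the library, so levels of different genes can be compared), called expressed below.

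FGF binds FGF receptors at the cell surface and activates the RAS-RAF-MEK-ERK kinase cascade, which keeps neural progenitors dividing. ERK in turn drives transcription of its own inhibitors: Sprouty and Spred proteins, which act on the cascade upstream of ERK, and DUSP phosphatases, which remove the phosphates from ERK itself. It also drives the PEA3 group of ETS transcription factors, ETV1, ETV4 and ETV5, whose expression marks regions of FGF signalling in the developing brain and limbs.

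RNA was sequenced from progenitors of the neural lineage, made from the embryonic stem cell line H1 (an established human line), on 7 days of differentiation towards neurons. Day 0 cells were kept in proliferation medium with FGF on Matrigel, and all later days followed a switch to differentiation medium that lacked FGF and contained BDNF, a ligand of the TrkB receptor. Cultures of days 1, 2 and 4 stayed on Matrigel, whereas those collected later (days 5, 11 and 18) had been moved at day 4 onto poly-D-lysine and laminin, so day 5 differs from day 4 in surface too. The labels give 3 cultures for each of days 0, 1, 2, 4, 11 and 18 and 2 cultures for day 5, all of 1 cell line and with no parallel cultures kept in FGF. The switch also changed the base medium and the supplements, with N2 left out and B27 raised. FGF removal, BDNF addition, these changes of medium and supplements, and time in culture therefore cannot be told apart.

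The deposited table holds 1 FPKM value per record and day, the authors' estimate over that day's cultures. There is therefore no spread between cultures, no error and no test for any value below, and the number of reads behind a value is unknown. A gene was called lower or higher where log2(FPKM + 0.1) differed by at least 1 (2-fold) between 2 days, and counts of the 10 genes are set beside the share of the expressed coding records past the same limit.

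By any amount, 9 of the 10 genes were lower on the first day after FGF was removed, against 59.7% of expressed coding records. At day 18 all 10 lay below day 0, against 76.1%. Once differences were recentred on the median of expressed coding records, 9 of 10 did, against 50% (ETV1 at 0.14 did not). The 10 genes summed to 347 FPKM at day 0, then 179, 191, 124, 136, 81.0 and 119 on days 1, 2, 4, 5, 11 and 18. SPRY1 and ETV4 made the largest drops among the 10 at day 1, to 22.9% and 22.4% of their day 0 level, whereas DUSP6 stood at 103% of its own. From day 11 to day 18 all 10 genes were higher again, against 18.6% of expressed coding records that were higher by any amount.

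**Figure D1:**
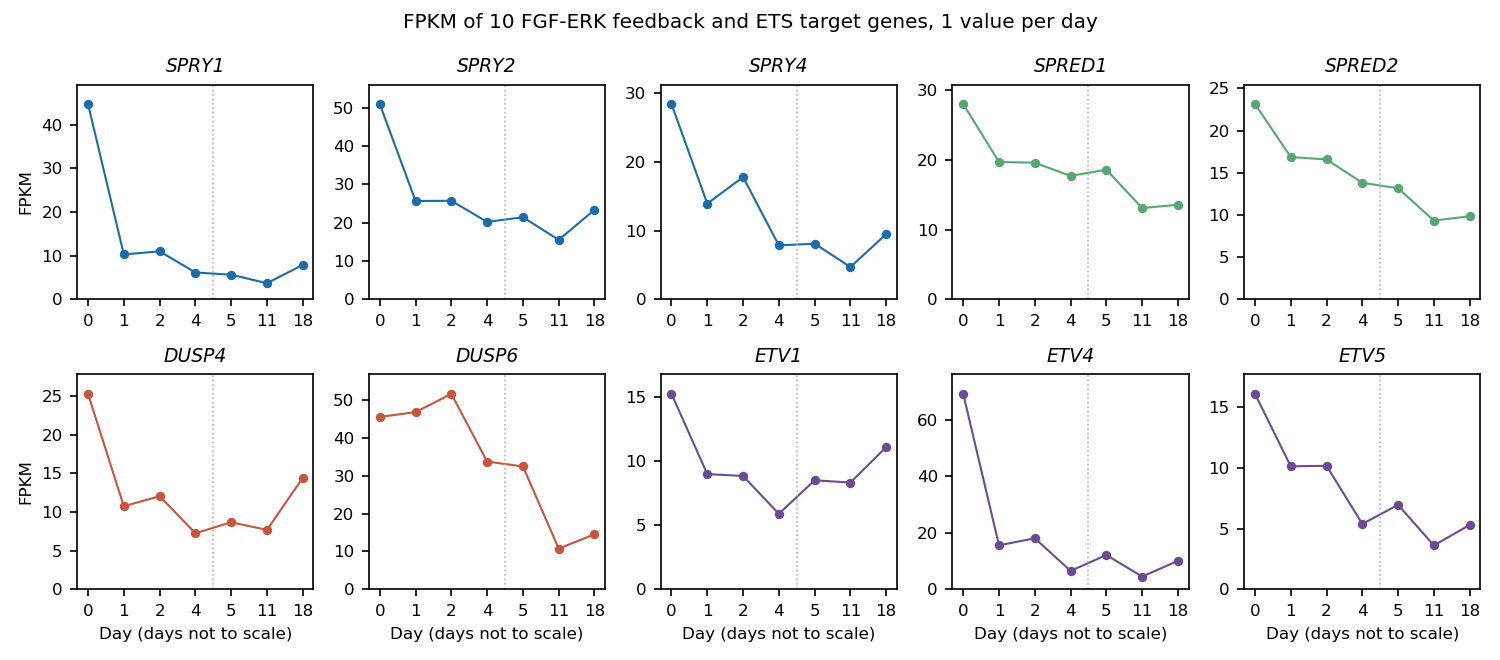
FPKM (vertical axes, linear, from 0, each panel with its own range) of the 10 genes on each of the 7 days (horizontal axes, days evenly spaced), with 1 point per day, the authors' value over the cultures of that day, and no error bars because there is no spread. The dotted line stands at replating (day 4). SPRY1 and ETV4 dropped at day 1, to 10.3 and 15.5 FPKM, while DUSP6 stayed at 46.9, and every last point lies above the point of day 11.

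The Sprouty genes encode membrane-associated inhibitors of signalling from receptor tyrosine kinases to RAS. SPRY1 (chr4:124317956-124324907 in hg19, plus strand) had 44.7 FPKM at day 0, then 10.3, 11.0, 6.12, 5.62, 3.67 and 7.86 on days 1, 2, 4, 5, 11 and 18. Its level at day 1 was 4.36-fold below day 0 (log2 difference -2.11), and only 0.220% of expressed coding records had a more negative difference. SPRY1 was lowest at day 11, 12.2-fold below its highest value, and rose 2.14-fold from there to day 18 (log2 difference 1.08).

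SPRY2 (chr13:80910114-80915086, minus strand) had 51.0 FPKM at day 0, then 25.7, 25.7, 20.2, 21.4, 15.5 and 23.3 on days 1, 2, 4, 5, 11 and 18. With a 1.99-fold lower level at day 1 (log2 difference -0.99), it was the member just outside the 2-fold limit, and SPRY4, 2.04-fold lower (-1.02), was the member just inside. SPRY4 (chr5:141689992-141704620, minus strand) had 28.4 FPKM at day 0, then 13.9, 17.8, 7.84, 8.08, 4.69 and 9.48 on days 1, 2, 4, 5, 11 and 18. It fell again, by 1.17 on the log2 scale, between days 2 and 4. At day 18 against day 11 the SPRY4 values stood in a ratio of 2.02, but on the scale with the pseudocount the difference lay just under the limit (1.00 after rounding).

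The start regions of the 2 Sprouty genes that were farthest apart at day 1 are shown, SPRY1 (4.36-fold lower) and SPRY2 (1.99-fold lower). Both stretches are the 250 bases before a RefSeq transcription start (promoter table of build GRCh38.p14), placed on GRCh37 (hg19) by an exact match that occurred at 1 place, and hold no annotated exon of the gene. SPRY1 lies at chr4:124317700-124317949 on the plus strand and SPRY2 at chr13:80915262-80915511 on the minus strand. Capitals mark CCGGAA, the core bound by ETS factors, and AGGAAG, the PEA3-type core, on either strand (CTTCCT is AGGAAG on the other strand).
SPRY1: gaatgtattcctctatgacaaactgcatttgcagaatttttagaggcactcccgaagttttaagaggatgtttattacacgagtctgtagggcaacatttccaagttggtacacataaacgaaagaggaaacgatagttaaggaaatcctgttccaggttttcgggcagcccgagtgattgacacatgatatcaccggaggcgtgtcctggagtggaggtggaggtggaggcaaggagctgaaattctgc
SPRY2: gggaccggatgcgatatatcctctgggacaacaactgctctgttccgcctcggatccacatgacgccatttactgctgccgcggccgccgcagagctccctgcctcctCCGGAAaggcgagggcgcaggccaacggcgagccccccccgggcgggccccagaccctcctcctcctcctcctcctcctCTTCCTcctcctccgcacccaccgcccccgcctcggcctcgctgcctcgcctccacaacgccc
The SPRY1 stretch held neither motif, and the SPRY2 stretch held CCGGAA at positions -142 to -137 from the start and AGGAAG on the other strand at -63 to -58. The other SPRY1 window, not shown, held both: CCGGAA at -67 to -62 from its start and AGGAAG on the other strand at -215 to -210.

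SPRED1 and SPRED2 encode Sprouty-related inhibitors that act on the RAS step, SPRED1 by recruiting the RAS inactivator neurofibromin. SPRED1 (chr15:38545052-38649449, plus strand) had 28.0 FPKM at day 0, then 19.7, 19.6, 17.7, 18.6, 13.1 and 13.6 on days 1, 2, 4, 5, 11 and 18. SPRED2 (chr2:65537986-65659656, minus strand) had 23.2, 16.9, 16.6, 13.8, 13.2, 9.33 and 9.85 FPKM on the same days. The Spred pair spanned narrow ranges, 2.14-fold and 2.48-fold between highest and lowest day, and neither was past 2-fold at any step between adjacent days. At day 1 they stood at 70.3% and 72.8% of day 0 (log2 differences -0.51 and -0.46), and from day 11 to day 18 their differences were 0.05 and 0.08, the 2 lowest among the 10 genes.

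DUSP4 and DUSP6 encode phosphatases that inactivate ERK, DUSP4 in the nucleus and DUSP6 in the cytoplasm, and they followed different courses. DUSP4 had 25.3 FPKM at day 0, then 10.7, 12.1, 7.25, 8.66, 7.68 and 14.4 on days 1, 2, 4, 5, 11 and 18. It fell 2.36-fold at day 1 (log2 difference -1.23), was lowest at day 4, and by day 18 stood 1.76-fold below day 0. DUSP6 (chr12:89741839-89746296, minus strand) had 45.6 FPKM at day 0, then 46.9, 51.7, 33.8, 32.5, 10.7 and 14.5 on days 1, 2, 4, 5, 11 and 18. At day 1 the DUSP6 difference was 0.04, and 63.1% of expressed coding records had a lower one. DUSP6 was 1.53-fold lower at day 4 than at day 2 (log2 difference -0.61; 2.68% of expressed coding records had a lower one), and the only step past 2-fold was that from day 5 to day 11, a 3.03-fold fall (-1.59). Over the 7 days the log2 values of DUSP4 and DUSP6 had a Pearson correlation of 0.31.

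The DUSP6 start region is shown because DUSP6 is the only member whose value at day 1 was not below day 0. The stretch is 232 bases long at chr12:89746297-89746528 on the minus strand, from the same RefSeq table and placed in the same way, and ends where the gene's record begins. It lies within exons of another gene, listed without a symbol, in GENCODE's GRCh37 annotation, and capitals mark the same motifs.
DUSP6: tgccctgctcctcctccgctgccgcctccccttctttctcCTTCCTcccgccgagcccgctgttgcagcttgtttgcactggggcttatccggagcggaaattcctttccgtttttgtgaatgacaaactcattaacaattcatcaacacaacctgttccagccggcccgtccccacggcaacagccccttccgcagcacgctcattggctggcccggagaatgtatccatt
It held AGGAAG on the other strand at positions -210 to -205 from the start, and no CCGGAA.

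ETV1, ETV4 and ETV5 are closely related transcription factors whose own RNA follows FGF-ERK activity in many tissues. ETV4 (chr17:41605212-41623762, minus strand) was the member with the highest level at day 0, 69.3 FPKM, followed by 15.5, 18.0, 6.46, 12.1, 4.44 and 10.0 on days 1, 2, 4, 5, 11 and 18. It fell 4.46-fold at day 1 (log2 difference -2.15), 2.79-fold between days 2 and 4 and 2.72-fold between days 5 and 11, and rose 2.26-fold between days 11 and 18. ETV4 had the widest range of the 10 genes, 15.6-fold between days 0 and 11.

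ETV5 (chr3:185764108-185826901, minus strand) had 16.1 FPKM at day 0, then 10.1, 10.2, 5.38, 6.95, 3.60 and 5.30 on days 1, 2, 4, 5, 11 and 18. ETV1 (chr7:13930858-14031050, minus strand) had 15.2 FPKM at day 0, then 8.97, 8.82, 5.87, 8.49, 8.31 and 11.1 on days 1, 2, 4, 5, 11 and 18. Neither was past 2-fold at day 1, with log2 differences of -0.66 for ETV5 and -0.76 for ETV1. The 2 then parted: ETV5 was lowest at day 11, 4.47-fold below day 0, whereas ETV1 was lowest at day 4 and reached 72.7% of its day 0 level by day 18, the highest share among the 10.

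The ETV1 start region is shown as the start region of an ETS factor gene that itself holds an ETS core. The stretch is the 250 bases at chr7:14031051-14031300 on the minus strand, 1 of 6 ETV1 windows in the table, with capitals as above.
ETV1: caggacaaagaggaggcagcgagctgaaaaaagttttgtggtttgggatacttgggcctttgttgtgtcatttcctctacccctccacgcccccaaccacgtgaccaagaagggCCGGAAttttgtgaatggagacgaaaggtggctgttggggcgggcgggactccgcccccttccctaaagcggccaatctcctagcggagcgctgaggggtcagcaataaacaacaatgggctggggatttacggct
It held CCGGAA at positions -136 to -131 from the start.

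Over the table's windows, which run from 250 bases before to 50 after a start, 7 of the 10 genes had at least 1 entry (16 windows, each with 1 exact match on GRCh37). DUSP4, ETV4 and ETV5 had none. Searched on both strands, CCGGAA was in 5 of the 16 windows (ETV1, the SPRY2 window shown and a SPRY1 window not shown) against 17.2% of all 35116 windows, and the longer ETS sequence CCGGAAGT, which contains that core, was in 0 against 4.14%. The AGGAAG core, searched after the values had been seen, was in 10 of 16 windows from 6 genes, against 33.6%. The AP-1 sequence TGACTCA was in 1 window of SPRED2 (4.95% of all windows), and the cAMP response element TGACGTCA (1.85%) and the CArG box (1.29%) were in none. Some windows of 1 gene overlap, and these counts describe letters, not binding.

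On the first day without FGF, day 1, 4 of the 10 genes (SPRY1, SPRY4, DUSP4 and ETV4) were at least 2-fold lower, against 3.09% of the expressed coding records. The median log2 difference of the 10 was -0.87, whereas that of all expressed coding records was -0.11. With differences recentred on that median, 3 of 10 genes remained past 2-fold (SPRY4 at -0.92 did not), against 2.09% of expressed coding records.

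From day 1 to day 2 no member was past 2-fold, where 0.144% of expressed coding records were past it downwards and 0.136% upwards, and the members' differences ran from -0.02 to 0.35, the latter of SPRY4. From day 2 to day 4 all 10 genes were lower, against 50% of expressed coding records, with a median difference of -0.67 against 0.00. SPRY4 and ETV4 were at least 2-fold lower at this step, 2 of 10 against 0.653%. SPRED1, at -0.15, had the smallest difference of the 10.

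Across replating, from day 4 to day 5, no member was past 2-fold (0.0509% of expressed coding records lower and 0.254% higher). ETV4 came closest, at 0.89, followed by ETV1 at 0.52 and ETV5 at 0.37, so the 3 ETS factor genes had the 3 most positive differences among the 10. From day 5 to day 11 all 10 genes were lower, against 71.3% of expressed coding records, and 2 of 10 were at least 2-fold lower (DUSP6 and ETV4) against 4.24%. Recentring on the median of expressed coding records placed 9 of 10 lower at this step, against 50% of those records, with ETV1 at 0.13.

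**Figure D2:**
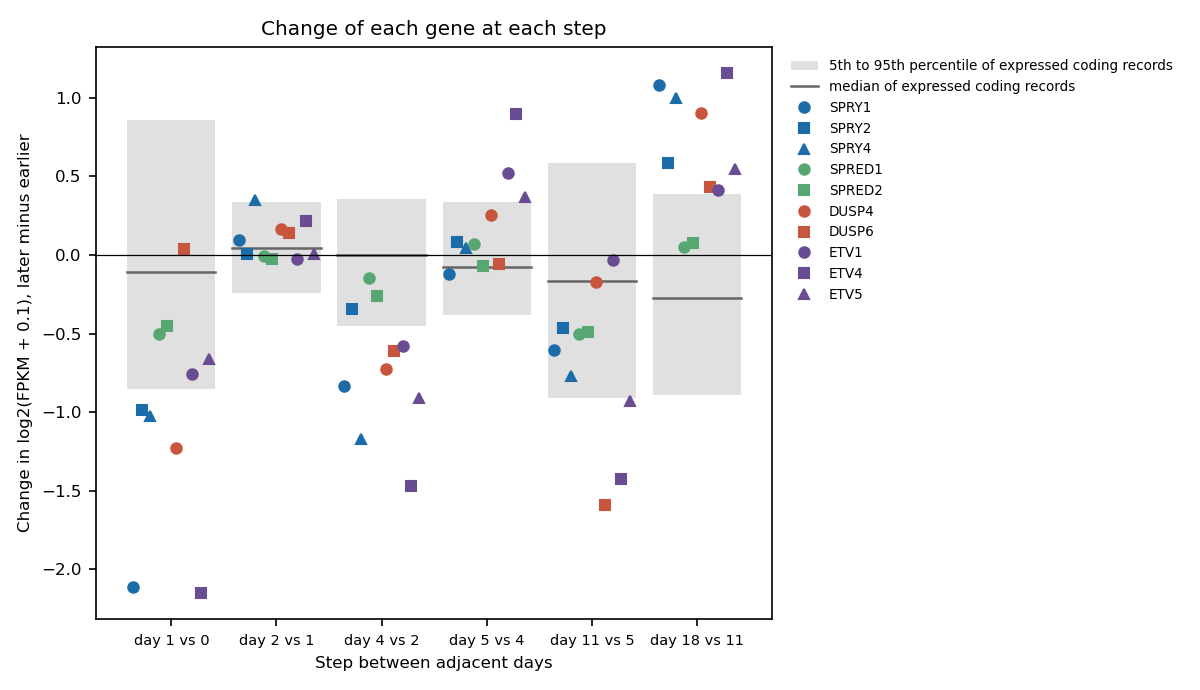
Difference in log2(FPKM + 0.1), later minus earlier day (vertical axis), of each of the 10 genes at the 6 steps between adjacent days (horizontal axis), with colours for the families. Grey boxes span the 5th to the 95th percentile of the 11793 expressed coding records and grey lines their medians. SPRY1 and ETV4 lie below -2 at day 1 against day 0, and all 10 genes lie above zero and above the median of -0.28 at day 18 against day 11.

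From day 11 to day 18 the direction turned. SPRY1 and ETV4 were at least 2-fold higher at day 18, 2 of 10 against 0.839% of expressed coding records, and the median of the 10 was 0.56 where that of expressed coding records was -0.28. With a pseudocount of 1 FPKM, SPRY1 was no longer past the limit (0.92), which left 1 of 10. Recentred on that median, SPRY4 and DUSP4 passed the limit too, making 4 of 10 against 1.83%, and all 10 stayed higher against 50%. Every member except the Spred pair was above the 95th percentile of expressed coding records at this step.

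Against day 0, 9 of 10 genes were at least 2-fold lower at day 11 (15.3% of expressed coding records; ETV1 at -0.87 was the exception) and 8 of 10 at day 18 (29.9%; DUSP4 at -0.81 and ETV1 at -0.46 were not). The median differences were -1.89 at day 11 and -1.40 at day 18. These comparisons and that of day 1 share the day 0 value. The share of genes past the limit at day 18 depends on the scaling of the days: the expressed coding records had a median of -0.60, and after recentring 3 of 10 genes (SPRY1, ETV4 and DUSP6) were past it against 12.1%, with ETV1 at 0.14. At day 11, 7 of 10 were past it after recentring, against 8.3%.

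The order of levels among the 10 genes also turned over, with no spread to say which neighbours differ. At day 0 it was led by ETV4 (69.3 FPKM), SPRY2 (51.0), DUSP6 (45.6) and SPRY1 (44.7). At day 1 ETV4 was in rank 5 and SPRY1 in rank 8, and DUSP6 led at each of days 1, 2, 4 and 5. At day 18 the order was SPRY2, DUSP6, DUSP4, SPRED1, ETV1, ETV4, SPRED2, SPRY4, SPRY1 and ETV5, from 23.3 down to 5.30 FPKM.

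The mean of the standardised log2 profiles, over 7 days, had a Pearson correlation of 0.99 with ETV4, 0.98 with SPRY1, SPRY2 and SPRY4, 0.97 with ETV5, 0.92 with SPRED1 and SPRED2, 0.86 with DUSP4, 0.73 with DUSP6 and 0.72 with ETV1. The members enter that mean themselves, and many other genes reach such values over 7 points: DUSP6 stood at the percentile 83.3 of expressed coding records and ETV1 at 81.3, while the other members stood between 96.3 and 99.98. Over the 45 pairs, the correlation ran from 0.08 (DUSP6 with ETV1) to 0.99 (SPRY1 with SPRY2), with a median of 0.86. Among all other expressed coding records, the 5 whose profile was most like the mean were CPNE2 (0.992), IL1RAP (0.989), SOX8 (0.988), RNF152 (0.986) and TENC1 (0.984). CPNE2 had 35.6, 22.3, 14.3 and 16.9 FPKM on days 0, 1, 11 and 18, and SOX8 had 3.85, 1.89, 0.629 and 1.08. All points are the same 7 day values from the same libraries.

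The wider pathway was described with 6 lists holding 73 genes, chosen with earlier results of these data known. For each list's count at day 1, the share of all expressed coding records past 2-fold was 3.09% lower and 3.6% higher. At day 1 none of 6 expressed genes among other MAPK phosphatases was past 2-fold. DUSP1, induced by stress and growth factors, had 9.07 FPKM at day 0 and 6.30 at day 1, and DUSP16, a JNK phosphatase, 15.3 and 21.2. Of 9 expressed genes listed as other ERK pathway inhibitors, 1 was at least 2-fold lower, against 3.09%. It was FLRT3, with 11.4, 5.14 and 10.9 FPKM on days 0, 1 and 18. FLRT3, like FLRT2 in the same list, encodes an FGF receptor binding membrane protein rather than an established ERK inhibitor. The medians of these lists were -0.12 and -0.26, against -0.87 for the 10 genes and -0.11 for expressed coding records.

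Of 13 other expressed ETS factors, 4 were at least 2-fold lower at day 1 and none higher, against 3.09% and 3.6% of expressed coding records. ELK3, a partner of serum response factor, had 17.8, 5.34, 0.968 and 0.675 FPKM on days 0, 1, 11 and 18. FLI1, a factor of blood and endothelial cells, had 5.74, 1.72, 0.0287 and 0.0120 FPKM on those days, and ETS1 37.1, 13.3, 1.47 and 0.547. These 3 genes had lower values at day 18 than at day 11. ETS2, the remaining one of the 4, had 3.56, 1.53, 1.37 and 1.58 FPKM on days 0, 1, 11 and 18, so its value at day 18 was above day 11, as for ETV1, ETV4 and ETV5. ETS2 was the only 1 of the 13 to be higher at that step (log2 difference 0.19), where 12 were lower (median -0.40). Of expressed coding records, 18.6% were higher.

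Of 12 growth genes that respond to ERK, 3 were at least 2-fold lower and 1 at least 2-fold higher at day 1, against 3.09% and 3.6% of expressed coding records. FOSL1, an AP-1 subunit, went from 17.6 to 6.25 FPKM, IER3 from 20.0 to 7.47 and HMGA2, a chromatin protein of dividing progenitors, from 227 to 102. EGR1, an immediate early gene that ERK induces within minutes, went the other way, from 1.78 FPKM at day 0 to 11.5, 22.2, 23.3, 10.4, 4.72 and 9.12 on days 1, 2, 4, 5, 11 and 18. EGR1 was highest at days 2 and 4, when SPRY1 and ETV4 were below their day 0 levels, and FOS had 1.33 FPKM at day 0 and 2.22 at day 1.

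Of the 22 RAS-ERK cascade genes only MAP2K1, which encodes the ERK kinase MEK1, was past 2-fold at day 1 (lower, as were 3.09% of expressed coding records), with 51.5, 23.1, 9.65 and 10.4 FPKM on days 0, 1, 11 and 18. The median of this list was -0.14. Among 5 expressed receptors for FGF and BDNF, 2 were at least 2-fold higher at day 1, against 3.6%: NGFR, the p75 neurotrophin receptor, went from 0.709 to 3.80 FPKM and FGFR2 from 6.11 to 13.0. FGFR1 had 114, 98.6 and 46.6 FPKM on days 0, 1 and 18, and NTRK2, which encodes TrkB, had 28.5, 25.3, 58.8 and 62.2 on days 0, 1, 11 and 18. RNA for a receptor of each ligand was therefore listed on every day.

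**Figure D3:**
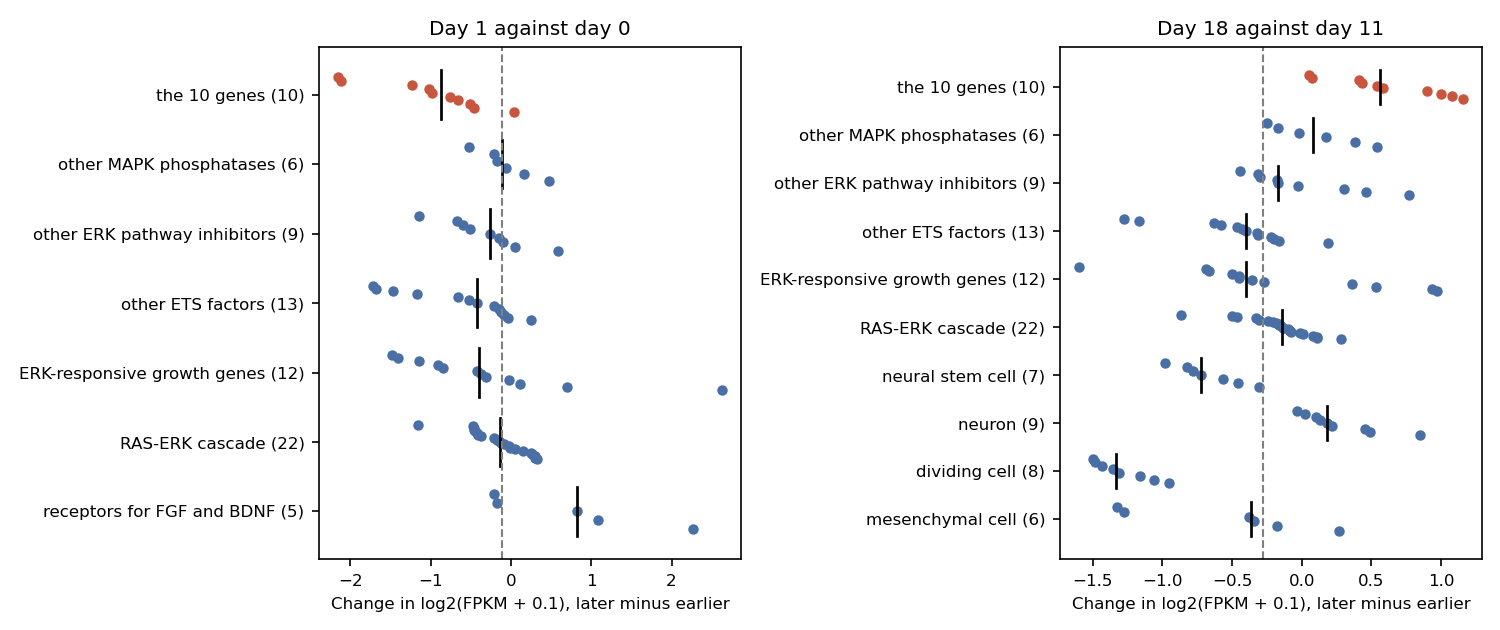
Difference in log2(FPKM + 0.1), later minus earlier day (horizontal axes), at day 1 against day 0 (left) and day 18 against day 11 (right), with 1 point per expressed gene, a black bar at each list's median, the number of genes in brackets, and a dashed line at the median of the 11793 expressed coding records (-0.11 and -0.28). The median of the 10 genes (red) is -0.87 on the left and 0.56 on the right.

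Markers of cell type and division moved over the same days, and their part in the members' values was not tested. The 7 neural stem cell markers at day 0 ran from VIM (2948 FPKM), NES (513) and SOX2 (126) through MSI1 (47.8) and PROM1 (38.8) to SOX1 (11.1) and PAX6 (4.31). At day 1, 1 of the 7 (PROM1) was at least 2-fold lower, against 3.09% of expressed coding records. The pluripotency genes POU5F1, NANOG and ZFP42 were at or below 0.108 FPKM on every day, and DPPA4 had 9.72 at day 0 and 2.25 at day 18. All 8 genes of dividing cells were lower at day 1, 2 of them at least 2-fold against 3.09% of expressed coding records (summed 728 FPKM at day 0, 425 at day 1), and had a median of -0.86 beside the members' -0.87. At day 4 against day 2 that list had a median of -0.05 beside -0.67 for the members. At day 18 against day 11, 7 of the 8 were at least 2-fold lower (summed 351 and 147 FPKM; 3.72% of expressed coding records), while all 10 members were higher.

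Of 6 expressed genes of mesenchymal cells, 3 were at least 2-fold lower at day 1, against 3.09%. The list of 8 summed to 658 FPKM at day 0, then 381, 420, 258, 301, 109 and 56.8 on days 1, 2, 4, 5, 11 and 18. Its sum, like that of the 10 genes, was higher at day 2 than at day 1 and at day 5 than at day 4. At day 2 against day 1, however, 5 of the 6 expressed genes were lower (median -0.19) and only TAGLN was higher. Among expressed coding records, 4509 of 11793 were lower at that step. At day 5 against day 4, 4 of the 6 were higher, as were 3774 of 11793. Most of the sum came from COL3A1 (238 at day 0, 30.5 at day 18) and TAGLN (367 and 19.4; 106 and 226 at days 1 and 2), while COL1A1 was listed at 0 and DCN at no more than 0.108 on every day. Of 9 neuron genes, 5 were higher at day 1 (median difference 0.27), as were 4753 of the 11793 expressed coding records. At least 2-fold higher was 1 (DCX) and at least 2-fold lower was 1 (GAP43), against 3.6% and 3.09%. The lower sum at day 1 came with GAP43, which went from 193 to 55.7 FPKM. The 9 summed to 363, 292, 1061 and 1319 FPKM on days 0, 1, 11 and 18. Of the glia markers, GFAP, AQP4, OLIG1, OLIG2, SOX10 and CSPG4 were at or below 0.584 FPKM on every day, PDGFRA shared a record with FIP1L1, and S100B had 8.68 FPKM at day 0, then 1.25, 0.593, 0.762, 1.09, 1.89 and 4.25 on days 1, 2, 4, 5, 11 and 18. S100B was thus lower at day 1 (log2 difference -2.70) and higher at day 18 against day 11 (1.13), as SPRY1 and ETV4 were. Its part in their values was not tested. The other expressed glia record, that of PDGFRA, was lower at both steps (-0.14 and -0.26). At day 18 against day 11, OLIG1, OLIG2, CSPG4 and SOX10 were also lower, and GFAP and AQP4 higher, all at the low levels given above. In bulk RNA, fewer cells of a type and less RNA per cell cannot be told apart.

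Exons of 5 of the 10 genes share bases with a lincRNA record on the other strand, as do those of 41.8% of expressed coding records. The shared part was 98.3% of exon bases for SPRY2, 100% for SPRY4, 71.4% for SPRED2, 98.2% for DUSP4 and 100% for DUSP6. The counting is not stated to use strand, so reads of a gene and of its antisense record cannot be told apart. The 4 records opposite SPRY2, SPRY4, SPRED2 and DUSP6 had at most 1.05 FPKM on any day. DUSP4 lies at chr8:29193617-29208185 on the minus strand, and the record opposite it was higher, with 5.38 FPKM at day 0, then 1.99, 2.22, 1.54, 2.00, 1.80 and 3.82 on days 1, 2, 4, 5, 11 and 18, and DUSP4 was 4.71-fold above it at day 0. Among the 5 members with no such overlap (SPRY1, SPRED1, ETV1, ETV4 and ETV5), 2 were at least 2-fold lower at day 1 and 2 at least 2-fold higher from day 11 to day 18, in each case SPRY1 and ETV4. Of all expressed coding records, with or without such overlap, 3.09% and 0.839% were past these limits.

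**Figure D4:**
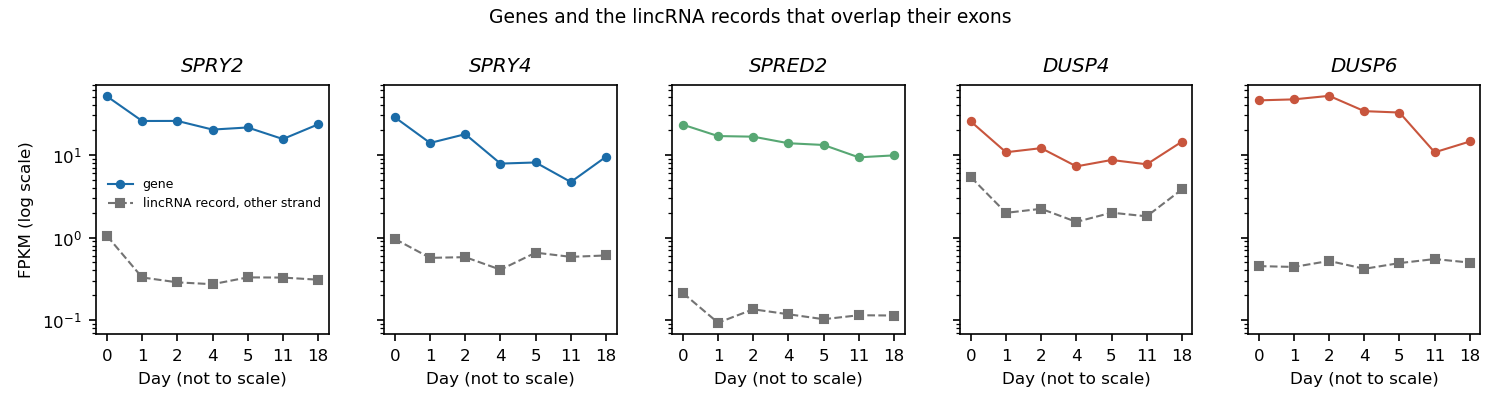
FPKM (vertical axis, log scale, shared) by day (horizontal axes, days evenly spaced) of the 5 genes whose exons share bases with a lincRNA record on the other strand (solid line, circles) and of that record (dashed line, squares), with 1 point per day and no error bars. The record opposite DUSP4 lies between 1.54 and 5.38 FPKM, and those opposite the other genes at or below 1.05.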

How the data were processed

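Polyadenylated RNA of 20 cultures was sequenced, and sample titles gave the groups. According to the methods, paired-end reads were aligned to hg19 with TopHat2, assembled with Cufflinks and quantified with Cuffdiff2 at default options. Versions of these programs are not given in the sources used here. The FPKM values deposited by the authors, 1 per record and day, are estimates over that day's cultures, scaled between days by the authors' software. No column (0) holds a single culture's value, and the depth behind each value is unknown, so no interval or test was computed.

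A second deposited table was used for gene names and exon coordinates (start and end positions, other than measurements). Its columns with the authors' comparisons between days (fold changes, test statistics, p-values, q-values and status) were not used.

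Differences were computed on log2(FPKM + 0.1), which understates the change of low genes, and called at 2-fold. The background was the 11793 coding records whose mean FPKM was 1 or more. Each symbol was matched to its record with the highest mean FPKM. From each pathway list, up to 3 genes past 2-fold at day 1 in each direction were named, with the largest differences. Other list and marker genes given were chosen after their values were seen. The 5 most similar records were ranked by Pearson correlation over the 7 days with the mean standardised log2 profile. Python 3.11.15, pandas 2.3.3, numpy 2.4.6 and matplotlib 3.10.9 were used. Promoter sequences came from RefSeq (GRCh38.p14) and exons from GENCODE on GRCh37. The members and lists were chosen with earlier results of these data known.

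Alternatives were pseudocounts of 1 and 0.01 FPKM, folds of 1.5 and 3, recentring on the median difference of expressed coding records, FPKM summed over all records of a symbol, no filter on level, and merged records left out. The share of each day's summed FPKM, the members without antisense overlap and the motif AGGAAG were added after seeing the data.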

Additional observations from a re-analysis of the deposited data

How the results depend on the processing

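Of 348 values recomputed under the alternatives, 299 kept their direction and their side of the 2-fold limit (counts stayed within 1.5 times). Another 49 did not, and 0 called values changed sign. The 299 include 59 values from FPKM summed over all coding records of a symbol. That alternative could not change the members' values, because each member's symbol had 1 coding record, so it tested nothing for them. From day 0 to day 1, 4 genes were at least 2-fold lower, against 3.09% of expressed coding records. They became 7 at a 1.5-fold limit and 2 at 3-fold. Without antisense overlap they were 2 of 5 genes. The shares of expressed coding records past 1.5-fold or 3-fold were not computed. Nor were those with other pseudocounts, as a share of summed FPKM, or without antisense overlap. Counts under these alternatives therefore have no background of their own. From day 11 to day 18, 2 genes were at least 2-fold higher, against 0.839% of expressed coding records. They became 1 with a pseudocount of 1 FPKM (SPRY1 was lost), 4 after recentring (against 1.83%) and 4 as a share of the day's summed FPKM. From day 0 to day 18, 8 genes were at least 2-fold lower, against 29.9% of expressed coding records. They became 3 after recentring (against 12.1%), 4 at 3-fold and 2 as a share of the summed FPKM. Without antisense overlap they were 4 of 5. The median of -1.40 became -0.80 after recentring and -0.69 as a share. From day 4 to day 5 the count at least 2-fold higher went from 0 to 1 (ETV4) as a share of the summed FPKM. Without antisense overlap, 1 of 5 was at least 2-fold lower at day 4 against day 2, and 1 of 5 at day 11 against day 5. Of all expressed coding records, 0.653% and 4.24% were at least 2-fold lower at these steps. Among the pathway lists at day 1, FLRT3, MAP2K1, ETS2 and HMGA2 were no longer past 2-fold as a share of the summed FPKM, while FGFR3 came past it. Other ETS factors at least 2-fold lower thus went from 4 to 3, and ERK-responsive growth genes from 3 to 2. Receptors at least 2-fold higher went from 2 to 3. With a pseudocount of 1 FPKM, ETS2 and FGFR2 were not past 2-fold. Recentring added 0.11 to log2 differences at day 1 against day 0, 0.28 at day 18 against day 11 and 0.60 at day 18 against day 0. The smaller set of 5 genes and the stated shifts are built into these alternatives, and other causes were not tested. No paired analysis was possible because the deposited values are 1 estimate per day and no test was made, and leaving out single cultures was not run for the same reason.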
